A study of Rattus norvegicus with 6 samples.

Results

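The genes described here are 10 members of the Notch pathway: the receptors Notch1, Notch2, Notch3 and Notch4, the ligands Jag1, Jag2, Dll1 and Dll4, and the target genes Hes1 and Hey1. They were chosen by name, and all 10 were found among the 37203 genes of the deposited count table. RNA of rat alveolar tissue, which carries the teeth in the jaw, had been sequenced in a comparison of tooth movement with and without corticision, a surgical incision through the gum into cortical bone. The case group held libraries 5, 6 and 9 and the control group libraries 5, 6 and 10, by their titles. The source field describes the case libraries as tooth movement without corticision and the control libraries as tooth movement with corticision, so the title and the source field point opposite ways in their usual sense. The group names used below are those of the titles, and differences are taken as case minus control. Tooth movement is shared by both groups, and no group without it was analysed here. The sources used here give no strain, age or time of sampling. They also leave unstated whether separate animals gave the libraries of a group, so the p-values reflect the spread among these samples only, part of which may be technical.

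Notch receptors are transmembrane proteins that bind ligands of the Jagged and Delta-like families on a neighbouring cell. Binding lets proteases release the intracellular part of the receptor, which enters the nucleus, joins the DNA-binding protein RBPJ and switches on genes such as Hes1 and Hey1, both transcriptional repressors. In bone the pathway is known to restrain osteoblast maturation and to act in osteoclast precursors; in vessels, Dll4 and Notch4 are known from endothelium and Notch3 from the mural cells around it.

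RBPJ binds DNA at the core letters TGGGAA, and RefSeq start-site windows (GRCr8, 250 bases before to 50 after the gene start) were searched for them on both strands. In all, 9 windows were matched for 8 members (Notch1, Notch2, Notch3, Notch4, Jag1, Jag2, Dll1 and Hes1), with more than 1 for Jag2. Of the 8 members, 4 held at least 1 match, where 25.7% of all 33469 rat windows did. Notch4, Dll1 and Hes1 held at least 2, where 3.85% did. Members are counted here by gene and the background by window. The longer form GTGGGAA, which contains the first motif, was present for Dll1 and Hes1 and in 6.29% of all windows. A match is a description of the sequence and not evidence of binding. The 2 windows below are shown because Hes1 is the pathway's best-known target and had the steadiest level here, while Dll1 had the smallest p of the 10 genes; capitals mark TGGGAA or its reverse complement. The Hes1 matches begin at -123 and -109 from the start, both on the gene's strand (window chr11:84212996-84213295, minus strand), and those of Dll1 at -185 and -82 (window chr1:64993225-64993524, minus strand).
Hes1: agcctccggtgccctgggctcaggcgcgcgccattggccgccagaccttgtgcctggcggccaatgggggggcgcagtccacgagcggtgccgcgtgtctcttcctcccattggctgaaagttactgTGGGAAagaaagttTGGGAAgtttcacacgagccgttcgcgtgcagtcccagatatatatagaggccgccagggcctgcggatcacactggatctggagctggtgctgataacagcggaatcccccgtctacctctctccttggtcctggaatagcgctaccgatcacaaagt
Dll1: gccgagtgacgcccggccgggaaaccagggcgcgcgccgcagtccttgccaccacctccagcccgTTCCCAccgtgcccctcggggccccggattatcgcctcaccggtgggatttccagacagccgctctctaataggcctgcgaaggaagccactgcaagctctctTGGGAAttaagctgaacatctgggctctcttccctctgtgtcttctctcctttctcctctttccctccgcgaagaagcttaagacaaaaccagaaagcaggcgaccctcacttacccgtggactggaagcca

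Library totals ranged from 10886303 to 14433740 counts, and values are given in CPM, the usual depth-scaled count, with TMM factors (trimmed mean of M-values). All 10 members passed the filter on low counts, as did 16066 genes in all. Bone markers were abundant, as the labelled tissue requires: 6 osteoblast markers summed to between 42910 and 84012 CPM in case and between 48873 and 70714 CPM in control, and 5 osteoclast markers to between 2974 and 4667 CPM in case and between 3208 and 6061 CPM in control. Both libraries numbered 5 stood apart. Tooth-forming cell markers (Ambn, Amelx, Enam, Dspp, Odam and Amtn) summed to 456 CPM for case 5 and 87.7 CPM for control 5. The sums were at most 2.79 CPM in the other case and 7.08 CPM in the other control libraries, where 2 or 3 of the 6 were at 0. The single genes did not all follow the sum. Amelx was at 221 CPM in case 5 but 0.613 CPM in control 5, below control 6 (3.38 CPM). Odam was at 26.0 CPM in control 5, but at 2.48 CPM in case 5 and 2.26 CPM in case 6. Neutrophil markers (5 genes) were lower in both libraries numbered 5, with 7608 CPM for case 5 and 6128 CPM for control 5. They were at 14342 to 18493 CPM in the other case and 14859 to 18025 CPM in the other control libraries. Markers of skeletal muscle (6 genes) were at 101 CPM for case 5 and 7.53 CPM for control 5, against 311 to 1119 CPM and 818 to 859.5 CPM in the others, and oral epithelium markers (6 genes) were at 3335 CPM in control 5 but between 11.9 and 35.3 CPM elsewhere. Erythroid markers (5 genes) lay between 1249 and 14052 CPM in case and between 8947 and 15668 CPM in control, and B cell markers (5 genes) between 118 and 163 CPM in case and between 41.4 and 120.1 CPM in control.

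The first question was whether any member differed between the case libraries, described as without corticision, and the control libraries, described as with it. The fold change was positive for 3 of the 4 receptors and for Hey1, negative for all 4 ligands and near 0 for Hes1. The positive sign of Hey1 rested on case 5. In edgeR's quasi-likelihood test 0 of the 10 passed after Benjamini-Hochberg adjustment over all genes. The whole table gave 0 called genes too (0%), so this count cannot set the members apart from other genes. At an unadjusted p under 0.05 there was 1 member, Dll1, of 10, beside 4.15% of all tested genes. DESeq2 called 0 members and 0.131% of the genes to which it gave an adjusted p. With limma-voom 0 members were called and 0 of all 16066 tested genes. The median log2 fold change was -0.07 over the 10 members and -0.02 over all tested genes, and 4 members were positive, beside 46.3% of all genes.

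**Figure D1:**
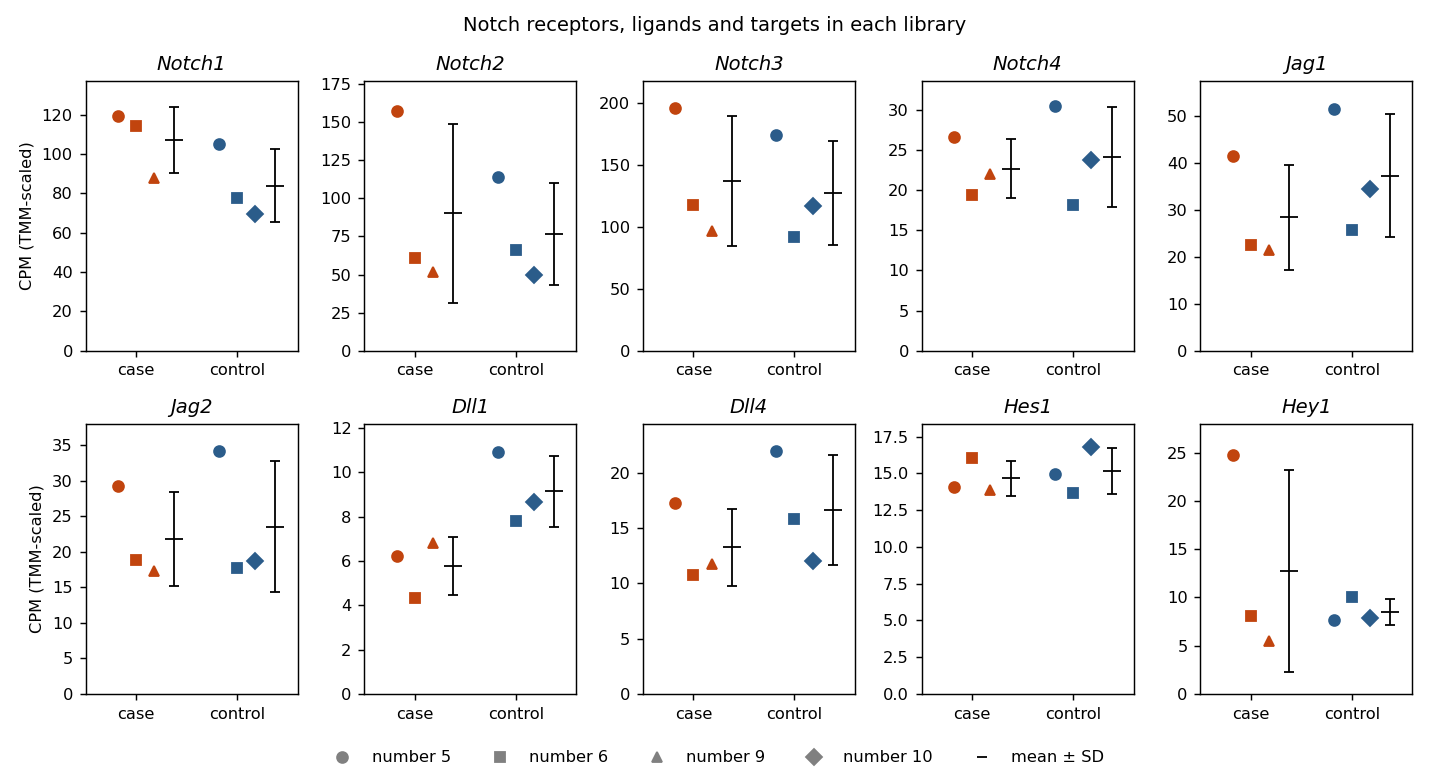
CPM of each gene in the 3 case (left) and 3 control (right) libraries, with marker shapes for the title number and a bar for the mean ± SD of 3 libraries. Dll1 is the gene whose groups do not overlap, at 4.32 to 6.81 CPM in case libraries and 7.79 to 10.9 CPM in control, and the circles (number 5) lie above the other libraries in 6 panels.

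Among the receptors, Notch1, which has wide roles in cell fate and in lymphocyte development, had the smallest p. It was at 119, 114 and 87.8 CPM in case 5, 6 and 9, against 105, 77.5 and 69.6 CPM in control 5, 6 and 10. Case 9 lay below control 5, so the groups overlapped, although within each group the library numbered 5 was the highest. Case averaged 107.2 ± 16.9 CPM and control 84.0 ± 18.6 CPM (here and below, SD over n = 3 libraries a group). Its log2 fold change was 0.35 (SE 0.20, 95% interval -0.12 to 0.82), with an adjusted p of 0.999, and it stayed positive without any single library (0.27 to 0.55).

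Notch2, the receptor whose activating mutations cause the bone-losing Hajdu-Cheney syndrome in humans, varied most among the receptors. Its CPM was 158, 60.9 and 51.8 in case 5, 6 and 9, against 114, 66.3 and 49.99 in control 5, 6 and 10. The libraries numbered 5 were far above the other 4, which spanned nearly the same range in both groups. Case minus control came to 0.23 on the log2 scale (SE 0.48, 95% interval -0.88 to 1.34), and it was -0.42 without case 5 and 0.63 without control 5.

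Notch3, the receptor of vascular mural cells, was at 196, 117 and 96.7 CPM in case 5, 6 and 9, against 173, 91.7 and 117 CPM in control 5, 6 and 10. Again case 5 and control 5 were highest, and the remaining libraries of the groups overlapped. On the log2 scale case minus control was 0.10 (SE 0.32), with an interval of -0.66 to 0.86, and it was -0.22 without case 5. Beside it, the 8 mural cell markers (Pdgfrb, Rgs5, Acta2 and others) had summed levels of 754 to 848 CPM in case and 932 to 1207 CPM in control. The groups did not overlap in this sum. As single genes only Pdgfrb had separate groups, lower in case, as 4.42% of all tested genes did, and the others overlapped. The fold change was negative for 7 of the 8, where 46.3% of all tested genes had a positive one. All 8 had counts in every library, and 0 passed the adjusted test. The part of mural cells in the Notch3 values was not tested. In whole tissue, fewer cells of a type and less RNA per cell cannot be told apart.

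Notch4, a receptor found mainly in endothelium, was at 26.6, 19.4 and 21.9 CPM in case 5, 6 and 9, against 30.5, 18.1 and 23.8 CPM in control 5, 6 and 10. The groups overlapped almost fully, with a log2 fold change of -0.09 (SE 0.23, 95% interval -0.64 to 0.45).

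All 4 ligands had a negative fold change, where 46.3% of all tested genes had a positive one, and Dll1 was the one with separate groups. Dll1, a Delta-like ligand that marginal zone B cells of the mouse spleen depend on, had 78, 65 and 81 counts in case 5, 6 and 9, against 125, 99 and 95 counts in control 5, 6 and 10. In CPM this was 6.23, 4.32 and 6.81 in case, against 10.9, 7.79 and 8.68 in control. Every case library lay below every control library, a pattern that 4.42% of all tested genes showed in this direction (4.05% in the other, in which 0 members did). Counting error alone was wide at this depth: the 95% Poisson interval of case 9, the highest case library, ran from 5.41 to 8.46 CPM and that of control 6, the lowest control library, from 6.33 to 9.49 CPM. These intervals cover counting error only.

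The Dll1 means were 5.79 ± 1.30 CPM in case and 9.14 ± 1.62 CPM in control, a log2 fold change of -0.66 (SE 0.28, 95% interval -1.30 to -0.017), or 0.633 times the control level. The unadjusted edgeR p was 0.0456 and the adjusted p 0.999, so the difference did not pass over all genes. Its value stayed negative without any single library, from -0.79 to -0.49. In RefSeq's GRCr8 annotation Dll1 overlaps Fam120b, and the sources used here do not say whether strand was used in counting, so reads of the overlap could have gone to either gene. Fam120b itself was at 39.0, 30.5 and 37.3 CPM in case 5, 6 and 9, against 32.0, 29.99 and 34.2 CPM in control 5, 6 and 10. Its groups overlapped, with a log2 fold change of 0.15 (SE 0.15).

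Jag1, the ligand mutated in Alagille syndrome in humans, was at 41.4, 22.4 and 21.4 CPM in case 5, 6 and 9, against 51.5, 25.7 and 34.5 CPM in control 5, 6 and 10. Case 5 lay within the control range, and case 6 and case 9 lay below all controls. The log2 fold change was -0.39 (SE 0.34, 95% interval -1.18 to 0.40), and it was -0.74 without case 5 and -0.08 without control 5. Jag2, its close relative, was at 29.3, 18.8 and 17.2 CPM in case 5, 6 and 9, against 34.1, 17.7 and 18.6 CPM in control 5, 6 and 10. Its groups overlapped and its log2 fold change was -0.11 (SE 0.32), turning to 0.26 without control 5.

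Dll4, the ligand of sprouting and arterial endothelium, was at 17.3, 10.7 and 11.8 CPM in case 5, 6 and 9, against 21.97, 15.8 and 12.1 CPM in control 5, 6 and 10. Case 5 lay inside the control range and the other case libraries just below it. The log2 fold change was -0.33 (SE 0.29, 95% interval -1.01 to 0.35), and -0.07 without control 5. The 8 endothelial markers (Pecam1, Cdh5, Kdr and others) had summed levels of 420 to 566 CPM in the case libraries and 533 to 585 CPM in control. All 8 had counts in every library, and 0 were past the adjusted threshold. The fold change was negative for 7 of 8 and positive for Erg, where 46.3% of all tested genes were positive. Only Pecam1 and Emcn had separate groups, lower in case, as 4.42% of all tested genes did. The part of endothelial cells in the Dll4 values was not tested. GRCr8 also lists Dll4l1 in overlap with Dll4, so the Dll4 counts are uncertain.

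Of the target genes, Hes1 was the steadiest member. Its level was 14.1, 16.0 and 13.9 CPM in case 5, 6 and 9, against 15.0, 13.7 and 16.8 CPM in control 5, 6 and 10, and its highest library was 1.23 times its lowest. The case range lay inside the control range, with means of 14.7 ± 1.20 CPM for case and 15.2 ± 1.57 CPM for control. The log2 fold change was -0.05 (SE 0.18), and its 95% interval of -0.47 to 0.38 still allows changes of 0.721 to 1.30 times the control level.

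Hey1, a relative of Hes1 that also restrains osteoblast genes, was by contrast the most variable. It was at 24.8, 8.05 and 5.46 CPM in case 5, 6 and 9, against 7.62, 10.1 and 7.86 CPM in control 5, 6 and 10. Case 5 alone was high, at 310 counts, while control 5 was the lowest control library. The log2 fold change was 0.58 (SE 0.54, 95% interval -0.67 to 1.83), and it was -0.30 without case 5, so its sign rested on that library. Case 5 is also the library with the highest sums of tooth-forming cell markers (456 CPM) and of osteoblast markers (84012 CPM). Control 5, next in tooth-forming cell markers at 87.7 CPM, had the lowest Hey1 of the controls. The part of either cell type in the Hey1 value was not tested.

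**Figure D2:**
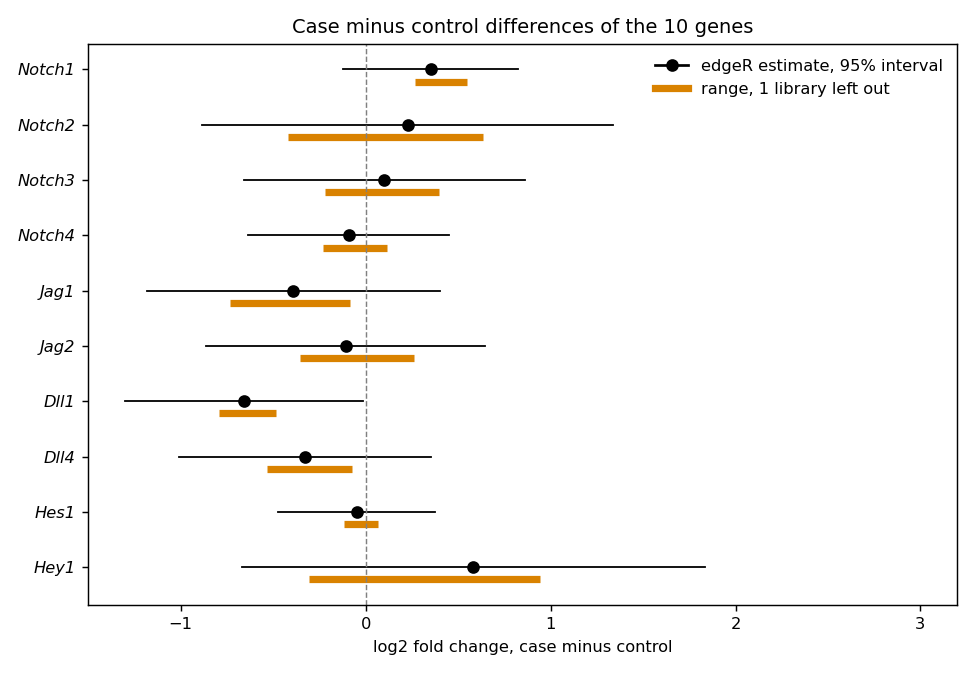
Log2 fold changes of the 10 genes (case minus control, x axis; genes down the page): black points and lines are edgeR estimates with 95% intervals, and orange bars the range when 1 library is left out. The Dll1 interval (-1.30 to -0.017) is the one that does not reach 0, and the orange bars stay on one side of 0 for Notch1, Jag1, Dll1 and Dll4.

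Many of the members were high in the libraries numbered 5 of both groups, a description of number 5 only. Notch1, Dll1, Hes1 and Hey1 did not have both of these libraries above the rest. In Notch2, Notch3, Notch4, Jag1, Jag2 and Dll4, 6 of the 10 genes, both libraries numbered 5 were above the other 4, and in 20% of all tested genes they were. The ratio of the mean CPM of the libraries numbered 5 to that of the other 4 was 2.38 for Notch2, 1.78 for Jag1, 1.75 for both Notch3 and Jag2, 1.56 for Dll4 and 1.37 for Notch4. It was 0.961 for Hes1, and its median was 1.65 over the 10 members and 0.9997 over all tested genes. The tooth-forming cell, neutrophil and muscle marker sums given above moved with the same libraries. The endothelial sum was the highest of the case libraries in case 5 (566 CPM) but the lowest of the controls in control 5 (533 CPM). The mural sum was 756 CPM in case 5, beside 754 CPM in case 6 and 848 CPM in case 9, and the lowest of the controls in control 5 (932 CPM). The part of any of these cells in the members' levels was not tested.

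**Figure D3:**
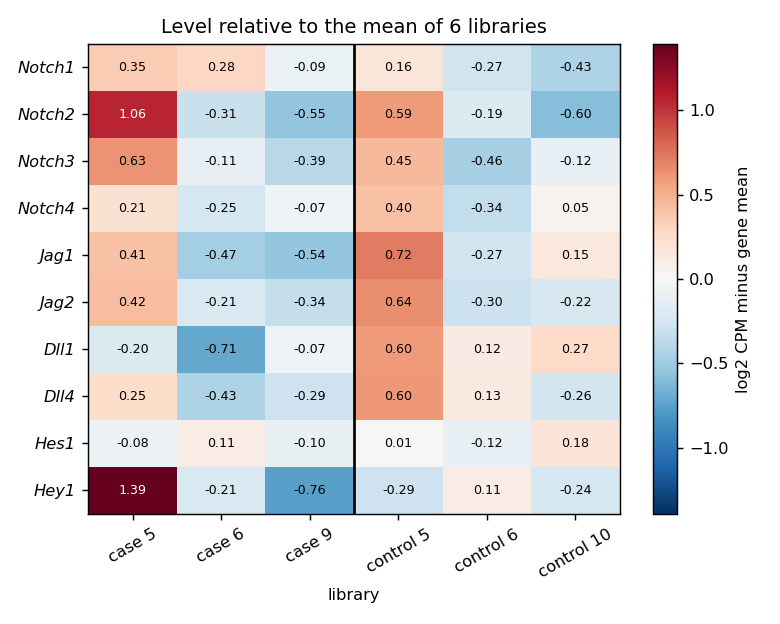
Log2 CPM of each gene (rows) minus its mean over 6 libraries, with the 3 case libraries left of the black line and the 3 control libraries right of it; red is above and blue below the gene's mean. Case 5 and control 5 are red in 6 rows where the other 4 libraries are lower, Hey1 is red in case 5 (1.39) but not in control 5 (-0.29), and Hes1 stays between -0.12 and 0.18.

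With number 5 against the other numbers as a covariate, the standard errors of all 10 members shrank. In that edgeR fit 3 of 10 reached an unadjusted p under 0.05, beside 8.59% of all genes. The labels do not single out number 5, and this split is the one described above from the same values. Smaller standard errors are thus built in for genes that show the split, and the p-values give no separate support. Notch1 and Dll1 did not show it in full, yet their standard errors fell too, from 0.20 to 0.14 and from 0.28 to 0.24. The reason for this was not tested. Notch1 had a log2 fold change of 0.37 (SE 0.14, unadjusted p 0.0336), Jag1 of -0.41 (SE 0.15, unadjusted p 0.0275) and Dll1 of -0.65 (SE 0.24, unadjusted p 0.0334). None passed over all genes, with an edgeR adjusted p of 0.547 for each of the 3. Over the 16 alternatives the adjusted p ran from 0.293 for Notch1, 0.401 for Jag1 and 0.486 for Dll1 up to 0.999996 for each.

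Summed over the family, the receptors were at 499, 312 and 258 CPM in case 5, 6 and 9, against 423, 254 and 259.8 CPM in control 5, 6 and 10. The ligands were at 94.2, 56.3 and 57.2 CPM in case, against 118.5, 67.1 and 73.9 CPM in control. Each sum overlapped between the groups, with the libraries numbered 5 highest in both. The ratio of receptor to ligand counts within a library, which no scaling of the libraries can alter, was 5.30, 5.54 and 4.51 in case 5, 6 and 9, against 3.57, 3.78 and 3.51 in control 5, 6 and 10. All 3 case libraries lay above all 3 control libraries, with means of 5.12 ± 0.539 in case and 3.62 ± 0.141 in control. Among single genes, 8.47% separated the groups in one direction or the other. That share is for the CPM of single genes and is not a like background for a ratio within a library. The mural marker sums given above separated them too, at 754 to 848 CPM in case and 932 to 1207 CPM in control, and their part in the ratio was not tested. The ratio was formed with the members' values known, and no test is given for it.

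**Figure D4:**
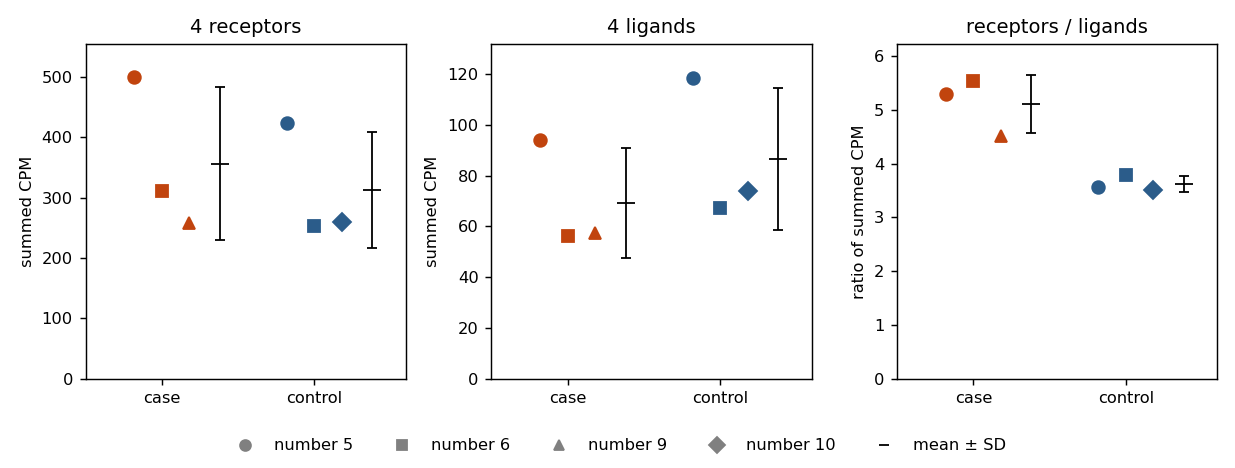
Summed CPM of the 4 receptors (left panel) and the 4 ligands (middle panel) and their ratio (right panel) in the case (left) and control (right) libraries of each panel, with marker shapes for the title number and a bar for the mean ± SD of 3 libraries. The sums overlap between the groups, while the ratio is 4.51 to 5.54 in case and 3.51 to 3.78 in control.

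Within the receptors, Notch2 took 31.6% of receptor counts in case 5 (95% Wilson interval 30.4 to 32.7%), 19.5% in case 6 (18.4 to 20.7%) and 20.1% in case 9 (18.7 to 21.5%), against 27.0% in control 5 (25.8 to 28.3%), 26.1% in control 6 (24.6 to 27.7%) and 19.2% in control 10 (17.8 to 20.7%). The share was highest in case 5, control 5 and control 6. These intervals, like those above, cover counting error only and not the spread between libraries. The Notch1 share was 23.9, 36.6 and 34.0% in case 5, 6 and 9, against 24.8, 30.6 and 26.8% in control 5, 6 and 10. Dll4 counts per Jag1 count, a ratio of ligands from different families, were 0.417, 0.478 and 0.549 in case, against 0.427, 0.615 and 0.349 in control, with overlapping groups. Hey1 counts per Hes1 count were 1.76, 0.502 and 0.394 in case, against 0.509, 0.736 and 0.467 in control, so that case 5 alone had more Hey1 than Hes1 counts.

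Genes whose pattern over the 6 libraries was most like that of a member were sought for the 3 most variable members, by the root mean square difference of log2 CPM after centring each gene, among 10760 genes whose mean CPM was 5 or more. Closest to Notch2 was Arid1b, a subunit of a chromatin remodelling complex, with a difference of 0.05, followed by Ppip5k2, an inositol pyrophosphate kinase (0.08), and Sphkap, an anchoring protein for protein kinase A (0.09). Closest to Jag1 were Plxna2, a semaphorin receptor (0.08), Usp32, a deubiquitinating enzyme (0.11), and Dixdc1, a Wnt pathway protein (0.11). For Hey1 the nearest genes were farther away: Lgr4, a receptor of R-spondins (0.22), Rcor2, a transcriptional corepressor (0.25), and the transcription factor Foxo1 (0.25). Lgr4 shows the pattern, at 45.0, 19.3 and 15.1 CPM in case 5, 6 and 9, against 19.3, 24.0 and 23.8 CPM in control 5, 6 and 10. These genes were picked for their likeness, and no test applies.

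The rest of the pathway was read from a list of 49 genes, of which 48 were in the table and 42 could be tested. None passed the adjusted test in edgeR and 0 had an unadjusted p under 0.05, beside 4.15% of all tested genes. There were 23 positive and 19 negative fold changes, with a median of 0.011, and case and control did not overlap in 3 genes higher in case, beside 4.05% of all tested genes, and in 1 lower, beside 4.42%, or 8.47% in either direction. Both libraries numbered 5 were above the other 4 in 15 of the 42, beside 20% of all tested genes.

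Among 8 genes of receptor cleavage, 4 were positive and 4 negative. Aph1a, a gamma-secretase subunit, averaged 95.9 ± 13.8 CPM in case libraries and 115 ± 9.496 CPM in control, and its paralog Aph1b 27.4 ± 13.1 CPM in case and 16.5 ± 9.30 in control. Both had overlapping groups. Among 5 glycosylation genes, Poglut1, which adds glucose to Notch repeats, had 24.0, 23.7 and 20.5 CPM in case 5, 6 and 9, against 26.2, 26.8 and 32.5 CPM in control 5, 6 and 10, with separate groups and a log2 fold change of -0.32 (SE 0.16). The fringe Lfng, which tunes the response to ligands, leaned the other way, with 56.5 ± 9.74 CPM in case libraries and 44.8 ± 5.41 CPM in control (log2 fold change 0.33, SE 0.18), and Mfng had 53.5 ± 6.65 CPM in case and 48.3 ± 7.75 in control.

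Of 13 genes of trafficking and turnover 9 were positive. Dtx2, a Deltex ubiquitin ligase, was at 34.7, 32.0 and 28.7 CPM in case 5, 6 and 9, against 28.5, 25.3 and 23.4 CPM in control 5, 6 and 10, separate groups with a log2 fold change of 0.30 (SE 0.16). The Notch antagonist Numb averaged 32.5 ± 3.73 CPM in case libraries and 28.0 ± 3.73 CPM in control, and the ubiquitin ligase Neurl1b 1.52 ± 0.832 CPM in case and 0.904 ± 0.230 in control. Of 10 nuclear genes 6 were positive, and Rbpj itself averaged 55.8 ± 9.36 CPM in case libraries and 57.8 ± 1.504 CPM in control. The acetyltransferase Kat2a (67.3 ± 7.29 CPM in case, 57.9 ± 2.27 in control) and the coactivator Snw1 (44.4 ± 2.64 CPM in case, 39.5 ± 2.40 in control) had separate groups.

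Of 8 other target genes listed, 5 could be tested. Of these 1 had a positive fold change and 4 a negative one, with a median log2 fold change of -0.20, where 46.3% of all tested genes were positive. Heyl, a relative of Hey1 known from mural cells, was at 71.8, 42.8 and 47.4 CPM in case 5, 6 and 9, against 74.8, 52.3 and 59.1 CPM in control 5, 6 and 10, with both libraries numbered 5 highest and overlapping groups. Nrarp, a feedback inhibitor of the pathway, averaged 10.4 ± 1.14 CPM in case libraries and 12.0 ± 2.41 CPM in control, and Hes6 28.1 ± 3.42 CPM in case and 24.2 ± 2.47 in control. Hes5, a target best known from neural tissue, was not tested for its few reads: case 5, 6 and 9 had 12, 2 and 0 counts, against 8, 1 and 0 counts in control 5, 6 and 10. Of the other ligands Dlk1, a non-canonical ligand, averaged 9.63 ± 6.64 CPM in case libraries and 7.45 ± 1.72 CPM in control, and Dll3 had at most 1 count in a case and 4 counts in a control library.

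**Figure D5:**
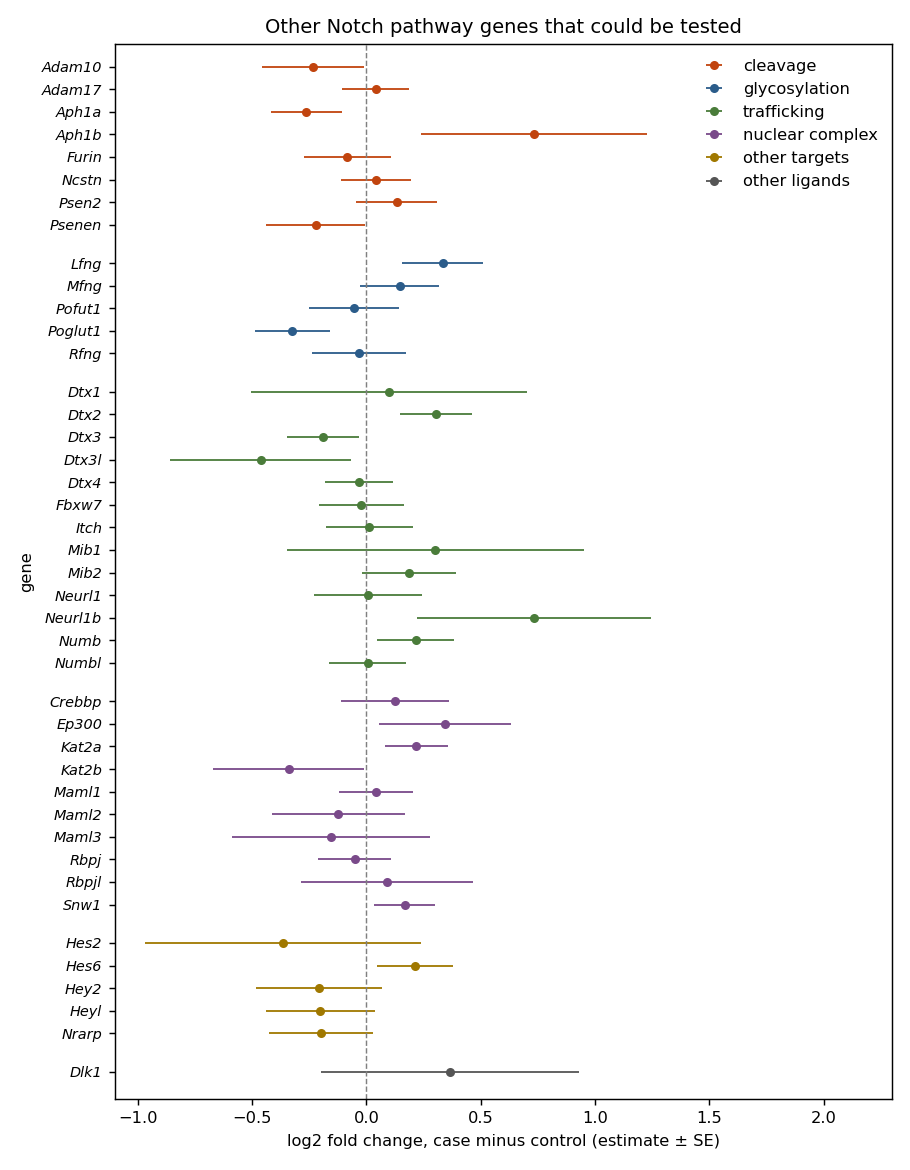
Log2 fold changes (case minus control, x axis) with SE bars for the 42 tested genes of the wider pathway (down the page), coloured by role. Points lie between -0.46 (Dtx3l) and 0.73 (Aph1b) on both sides of 0, and 0 genes passed the adjusted test.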

How the data were processed

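Total RNA was isolated with TRIzol and the Ion Total RNA-Seq Kit v2.0 was used for single-end libraries, per the labels' protocols. What the authors deposited is a single file of raw, whole-number counts, 1 row per gene symbol and 1 column per library (6 libraries). The sources used here name no aligner, counter, build, annotation or strand setting. Columns were matched to libraries by title. Members and lists were chosen with earlier results of these data known.

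Genes were filtered with filterByExpr (16066 of 37203 kept), scaled with TMM and compared by edgeR 4.0.16 quasi-likelihood testing (R 4.3.3), group alone in the design, with a Benjamini-Hochberg threshold of 0.05 over all tested genes. The SE is the fold change divided by the root of F. Log2 CPM used a prior count of 2. Alternatives were other scalings and filters, DESeq2 1.42.0, limma-voom (limma 3.58.1), each library left out, both libraries numbered 5 left out, the title number as a block, and number 5 as a covariate. The test was first checked on simulated counts. All members were named; of other pathway genes, up to 3 of each role, those with the smallest p, were named, and Rbpj, Hes5, Dll3 and Dtx3l were named after their values were seen. Some genes of the pathway are not reported here. For counting error, a floor of 3 counts (0.2 to 0.274 CPM) was set for a 0. The 95% Poisson interval of a 0 reached higher, to 0.337 CPM in control 10. Sequences are from RefSeq's GRCr8 tables, and build-specific coordinates apply to them alone.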

Additional observations from a re-analysis of the deposited data

How the results depend on the processing

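Over the 16 alternatives 0 members passed the adjusted threshold. Over all genes the count of calls was 0 except with DESeq2 (21) and, among fits without 1 library (0 to 2), without control 5 (2). Notch1 stayed positive and Jag1, Dll1 and Dll4 negative in all 16. The sign of Hes1 changed with library totals (0.0016) and with the title number as a replicate block (0.069). Without both libraries numbered 5 the values were -0.0036 for Notch2, 0.019 for Notch4, 0.029 for Jag2, 0.013 for Hes1 and -0.36 for Hey1, all of the opposite sign. Leaving out 1 library gave -0.42 to 0.63 for Notch2, -0.22 to 0.39 for Notch3, -0.23 to 0.12 for Notch4, -0.35 to 0.26 for Jag2, -0.12 to 0.067 for Hes1 and -0.30 to 0.94 for Hey1; the cause was not tested. The median over members was -0.33 without case 5 and 0.19 without control 5. The numbers 5 and 6 occur in both groups, and the labels do not say what they mark. Deviations from the group means, across genes, correlated at 0.38 for number 5 and 0.14 for number 6, against 0.10 for case 9 with control 10, -0.34 for case 5 with control 6 and -0.20 for case 6 with control 5. With 2 such pairs the numbers were not taken as a pairing. With the replicate block 0 genes were called and Dll1 was at -0.83. Within number 5 and number 6, Dll1 differed by -0.80 and -0.83 in log2 CPM, Notch1 by 0.19 and 0.56, and 5 of 10 members had the same sign in both. Of the members, Dll1 (65 to 125 counts) and Hey1 (65 to 310 counts) had the libraries with the fewest counts.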
